A study of Mus musculus with 9 samples.

Results

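The 10 genes described here encode proteins of elastic fibres and of the microfibrils on which these fibres form. They were chosen by name, and all 10 of them (Eln, Fbn1, Mfap2, Mfap4, Mfap5, Fbln1, Fbln2, Fbln5, Efemp2 and Emilin1) were found among the 35024 gene rows of the deposited table. All 10 also passed the filter on low values that left 17199 genes for testing. The measurement was bulk RNA sequencing of hepatic stellate cells, the liver pericytes that store retinoids, sorted by retinoid autofluorescence and lysed straight after sorting. Every mouse had a floxed Yap1 gene on a C57BL/6J background and a liver injured by 6 intraperitoneal doses of carbon tetrachloride (CCl4, a hepatotoxin), given as 0.5 mg per kg in the labels, at intervals of 3 days. Cells were taken 2 days after the last dose, and the labels give no age, no uninjured mice and no mice with Cre but without floxed Yap1. The YAP-deleted group held 4 libraries (LYT006, LYT008, LYT013 and LYT016) from mice that also carried LratCre, a Cre driven by the promoter of Lrat, the retinol esterifying enzyme of stellate cells. The control group held 5 libraries (LYT004, LYT005, LYT014, LYT015 and LYT017) from floxed mice without that Cre, so loss of Yap1 and presence of the Cre cannot be told apart. The study asked what deletion of Yap1, a transcriptional coactivator restrained by the Hippo pathway, does to these cells.

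Elastic fibres have a core of cross-linked elastin, which is secreted as tropoelastin and laid down on a scaffold of fibrillin microfibrils. Fibulins and lysyl oxidases bring tropoelastin to the microfibril and cross-link it there, and microfibrils also hold latent TGF-beta in the matrix. In the liver, elastic fibres are known from portal tracts and vessel walls and from the scars of chronic injury, and portal fibroblasts and activated stellate cells are both known sources of their components.

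The targeted gene was read first. Yap1 had 642, 648, 2529.8 and 645 normalised counts in YAP-deleted LYT006, LYT008, LYT013 and LYT016, against 2902, 2915, 618, 3653 and 3551 in control LYT004, LYT005, LYT014, LYT015 and LYT017. A normalised count is the whole-number count recovered from the deposited value, divided by the size factor of its library. The library labelled YAP-deleted LYT013 thus lay with the controls in Yap1, and the library labelled control LYT014 lay with the YAP-deleted libraries. As labelled, the difference in Yap1 was −1.30 ± 0.54 on the log2-like scale of the deposited values (YAP-deleted minus control, SE, limma adjusted p = 0.649, two-sided p = 0.0794 by an exact permutation test over every regrouping). The labels were kept, and results are given with all 9 libraries and again with the 7 libraries left without LYT013 and LYT014. In those 7 Yap1 differed by −2.22 ± 0.10 (SE, limma adjusted p = 8.09e-05). As these 2 libraries were set aside for their Yap1 level, that value is no test of the deletion. Between LYT006 and LYT008 and control LYT004 and LYT005 alone, Yap1 differed by −2.07 ± 0.10 (limma adjusted p = 0.0150).

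Recovered totals ran from 14052502 to 31816055 counts per library, with 16282 to 17341 genes detected above the floor of the table. All 12 stellate cell markers, Lrat and Des among them, were above the lowest value in every library, with sums of 531226 to 763867 normalised counts in the YAP-deleted libraries and 449799.5 to 703264 in the control libraries. The labels do not say that each library came from its own mouse, so p-values cover only the scatter among libraries, which may in part be technical. In sorted cells read in bulk, fewer cells of a type and less RNA per cell cannot be told apart. The library codes fall into 2 ranges, 4 to 8 and 13 to 17, which the labels do not explain. Codes 4 to 8 hold YAP-deleted LYT006 and LYT008 and control LYT004 and LYT005, and codes 13 to 17 hold the other 5 libraries, LYT013 and LYT014 included.

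The promoters of members with a RefSeq entry are the regulatory sequences closest to these measurements, and 7 of the 10 members had one (GRCm38.p6, 250 bases before the RefSeq start). Eln, Mfap4 and Mfap5 had none. The sequences of 3 are shown, those of Fbn1, Emilin1 and Mfap2. In Fbn1 every YAP-deleted library lay below every control library within each range of codes, as in 3.9% of all genes. Fbn1 did not pass by label (limma adjusted p = 0.649). Emilin1 was the most abundant member, and Mfap2 differed between the ranges. The RefSeq starts of these 3 genes lie inside their GENCODE gene spans (for Mfap2 chromosome 4, 141010418 to 141015984), so the 3 windows fall within those spans. They are written 5′ to 3′ in the direction of transcription. Capitals mark each GC box (GGGCGG or its reverse complement CCGCCC), the site class bound by SP1 family factors.
Fbn1: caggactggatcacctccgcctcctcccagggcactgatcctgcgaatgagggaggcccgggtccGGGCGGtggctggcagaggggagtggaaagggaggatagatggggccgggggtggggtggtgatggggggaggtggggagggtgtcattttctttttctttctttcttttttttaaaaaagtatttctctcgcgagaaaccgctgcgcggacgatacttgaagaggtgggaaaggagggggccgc
Emilin1: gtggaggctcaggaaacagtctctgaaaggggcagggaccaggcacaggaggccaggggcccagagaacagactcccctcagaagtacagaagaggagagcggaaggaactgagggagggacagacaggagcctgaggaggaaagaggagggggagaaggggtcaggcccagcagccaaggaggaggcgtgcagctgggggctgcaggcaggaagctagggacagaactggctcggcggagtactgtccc
Mfap2: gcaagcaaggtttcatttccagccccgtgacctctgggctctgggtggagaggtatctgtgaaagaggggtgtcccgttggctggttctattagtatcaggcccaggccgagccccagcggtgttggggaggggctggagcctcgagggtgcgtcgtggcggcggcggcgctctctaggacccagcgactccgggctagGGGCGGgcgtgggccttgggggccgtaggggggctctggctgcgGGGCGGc
The Fbn1 stretch lies at chr2:125506439-125506688 on the minus strand, the Emilin1 stretch at chr5:30913536-30913785 on the plus strand and the Mfap2 stretch at chr4:141010431-141010680 on the plus strand. Fbn1 held 1 GC box and Mfap2 held 2, and the Emilin1 stretch had none. The TEAD core CATTCC, bound by the DNA-binding partners of YAP, was searched on both strands and found in 0 of the 7 members, and in 12.6% of 32851 promoters of the same length. The AP-1 motif TGANTCA was found in 0 of the 7 members and in 6.75% of all promoters. The GC box, chosen after the sequences were seen, was in 5 of the 7 members (Efemp2, Fbln2, Fbln5, Fbn1 and Mfap2) and in 32.7% of all promoters. A match of 1 motif is never a match of another. A match of letters is a description of the window only.

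**Figure D1:**
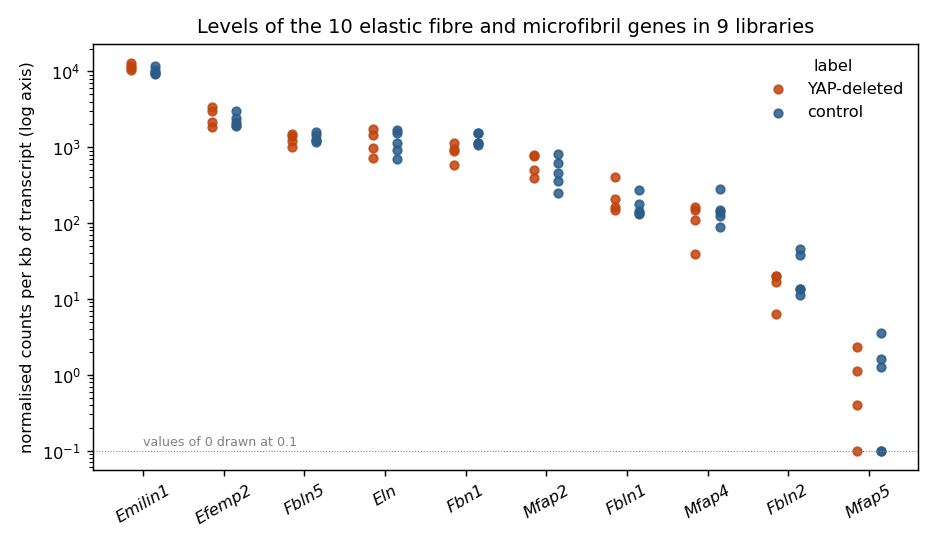
Normalised counts per kilobase of the longest coding transcript (log axis) for each of the 10 genes, 1 point per library, with YAP-deleted libraries left of control libraries and values of 0 drawn at 0.1. Emilin1 stands highest with a median of 10558 per kilobase, and Mfap5 lowest with 1.11.

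Emilin1 transcripts were the most abundant of the family in every library. Levels between genes are compared as normalised counts per kilobase of the longest coding transcript in GENCODE M21. Emilin1, which encodes a glycoprotein at the interface of elastin and microfibrils, had a median of 10558 per kilobase over the 9 libraries (9222 to 12782). Efemp2, encoding fibulin-4, which elastic fibre assembly requires, followed with a median of 2168 (1870.3 to 3440.2), and neither range overlapped that of another member. Fbln5, encoding the fibulin that links tropoelastin to microfibrils and integrins, had a median of 1255 (1011 to 1583). Eln itself and Fbn1, which encodes the main fibrillin of adult tissue, lay beside it with medians of 1146 (695 to 1735) and 1122 (579 to 1555), and the ranges of these 3 genes overlapped. Mfap2, encoding a small glycoprotein that binds fibrillin, had a median of 504 (248 to 803). This range overlapped those of Eln and Fbn1 above it and of Fbln1 and Mfap4 below it. Fbln1, a fibulin of basement membranes and elastic fibres, and Mfap4, a microfibril glycoprotein with a fibrinogen-like domain, had medians of 161 (130 to 401) and 139 (38.6 to 285) with overlapping ranges. Fbln2, a second fibulin of basement membranes, was low at a median of 16.9 (6.25 to 45.4), overlapping Mfap4 at its lowest library. Mfap5, the relative of Mfap2, was barely detected, with 0 to 4 recovered counts per library.

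The members were unlike in how much they varied between libraries. The highest library exceeded the lowest 7.38-fold for Mfap4, 7.26-fold for Fbln2, 3.24-fold for Mfap2, 3.09-fold for Fbln1, 2.69-fold for Fbn1 and 2.50-fold for Eln. It did so 1.84-fold for Efemp2, 1.57-fold for Fbln5 and 1.39-fold for Emilin1, while Mfap5, listed at 0 in 3 libraries, has no such fold. By this fold the 3 most abundant members per kilobase varied least among the other 9 genes.

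By label, the family as a whole showed no common direction and no member passed the test. Of the 10 members, 5 had a positive and 5 a negative difference between YAP-deleted and control libraries, with a median of 0.00 on the log2-like scale, against 49.1% positive and a median of −0.00 over all 17199 genes. Limma called 0 of the 10 members at an adjusted p under 0.05, against 0% of all genes, and 0 genes were called when the recovered counts were tested with voom. At an unadjusted p under 0.05 there was 1 member, Fbn1, against 7.22% of all genes (1242 genes). No member had groups that did not overlap, against 2.84% of all genes. In the 7 libraries limma called 0 members, against 0.0698% of all genes (12 genes, Yap1 among them), and 6 of the 10 differences were positive. In each of 21 alternative settings for Fbn1, Fbln1, Mfap2, Mfap4 and Emilin1, and in each of 20 for Fbln2, the sign held and no call was made, whereas Eln, Fbln5, Mfap5 and Efemp2 changed sign in some.

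**Figure D2:**
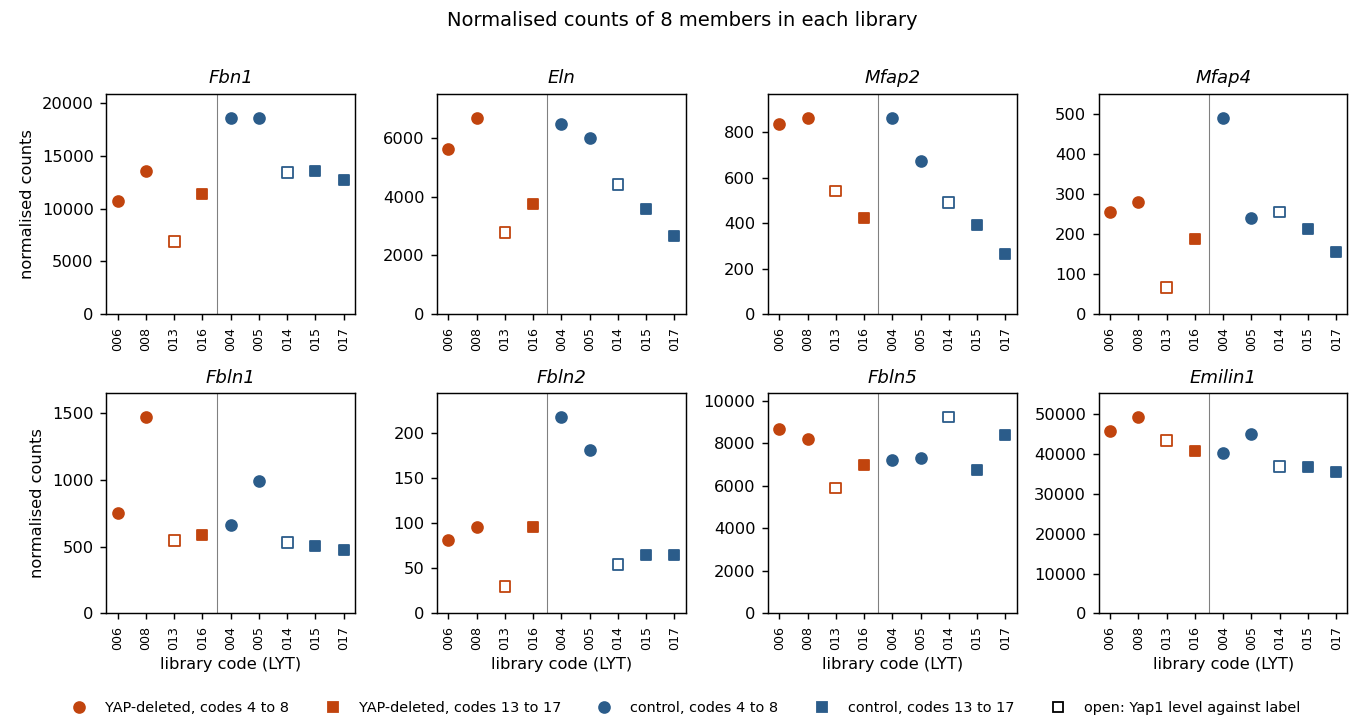
Normalised counts of 8 of the 10 genes (all but Efemp2 and Mfap5) in each of the 9 libraries, each panel with its own axis starting at 0, YAP-deleted libraries left of control libraries. Circles are codes 4 to 8, squares are codes 13 to 17, and open squares are LYT013 and LYT014. The Fbn1 panel shows YAP-deleted libraries at 6925 to 13533 and control libraries at 12721 to 18616.

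Fbn1 was the member with the smallest p by label. Fbn1 (ENSMUSG00000027204; chromosome 2, 125300594 to 125507993 on GRCm38, minus strand, 65 exons) had 10755, 13533, 6925 and 11408 normalised counts in YAP-deleted LYT006, LYT008, LYT013 and LYT016, against 18561, 18616, 13428, 13569.9 and 12721 in control LYT004, LYT005, LYT014, LYT015 and LYT017. The means were 10655 ± 2755 in YAP-deleted libraries and 15379 ± 2947 in control libraries (SD, n = 4 and 5). The groups overlapped through LYT008, which exceeded LYT014 and LYT017. The difference was −0.55 ± 0.21 on the log2-like scale (SE, limma adjusted p = 0.649). Without LYT013 and LYT014 it was −0.40 ± 0.17 (limma adjusted p = 0.789), and without LYT013 alone it was −0.35. Other genes moved the same way by label without a call: 7 of 7 genes of activated stellate cells had a negative difference (median −0.53, sums of 251920.3 to 585841 normalised counts in YAP-deleted libraries and 342409.7 to 831387 in control libraries). So did 8 of 8 cycling genes (median −1.11, sums of 606 to 13295 in YAP-deleted libraries and 609.8 to 20420.0 in control libraries), against 49.1% of all genes with a positive difference. Vascular smooth muscle markers had a positive difference by label for 1 of 7 genes (median −0.27), and limma called 0. Their sums were 23947 to 30582 normalised counts in YAP-deleted libraries and 30085 to 33753 in control libraries. LYT013 had the lowest sum of the 9 libraries for the activated stellate and the smooth muscle lists. Other lists went the opposite way by label, also with 0 called. Positive differences were found for 7 of 8 macrophage markers (median 0.19), 8 of 12 stellate cell markers (median 0.17) and 4 of 5 hepatocyte markers (median 0.09). Portal fibroblast markers were mixed, with 5 of 9 positive (median 0.01), and 2 of 6 endothelial markers were positive (median −0.24). The part of any of these lists in the Fbn1 difference was not tested.

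Within each range of codes the order was the same for Fbn1. In codes 4 to 8, YAP-deleted LYT006 and LYT008 lay below control LYT004 and LYT005 (−0.62 ± 0.16, limma adjusted p = 0.498). In codes 13 to 17, YAP-deleted LYT013 and LYT016 lay below control LYT014, LYT015 and LYT017 (−0.57 ± 0.25, limma adjusted p = 0.709). LYT016 at 11408 also lay below control LYT015 and LYT017 when LYT013 and LYT014 were set aside. LYT013, which had the Yap1 level of a control library, had the lowest Fbn1 of the 9 libraries. With the range of codes as a term in the fit, the difference was −0.59 ± 0.15 (limma adjusted p = 0.398). Fbn1 and Emilin1 were the 2 of 10 members with no overlap between labels in the same direction within both ranges, against 8.21% of all genes, and Fbn1 was the 1 that was lower, against 3.9% of all genes. Fbn1 shares 2442 exon bases with Gm9913, annotated on the opposite strand, which had 2.31 to 14.03 normalised counts.

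Emilin1 (chromosome 5, 30913402 to 30921277, plus strand) had the opposite order. It had 45775, 49236, 43399 and 40668 normalised counts in YAP-deleted LYT006, LYT008, LYT013 and LYT016, against 40298, 45055, 36872, 36661 and 35525 in control LYT004, LYT005, LYT014, LYT015 and LYT017. Its protein is known to restrain the processing of pro-TGF-beta as well as to bind elastin. Within codes 4 to 8 and within codes 13 to 17 every YAP-deleted library lay above every control library, against 4.31% of all genes in that direction. The difference over 9 libraries was small at 0.21 ± 0.16 (SE, limma adjusted p = 0.683) and was 0.20 ± 0.17 in the 7 libraries (limma adjusted p = 0.901). Across both ranges the groups overlapped, since control LYT005 exceeded YAP-deleted LYT013 and LYT016.

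Eln, the elastin gene itself (chromosome 5, 134702593 to 134747323, minus strand), did not separate by label. It had 5624, 6686, 2786 and 3750.1 normalised counts in YAP-deleted LYT006, LYT008, LYT013 and LYT016, against 6483, 6000.0, 4414, 3569 and 2678 in control LYT004, LYT005, LYT014, LYT015 and LYT017. Each group held libraries near both ends of the range. The difference was 0.02 ± 0.30 (SE, limma adjusted p = 0.990), and 0.24 ± 0.32 in the 7 libraries (limma adjusted p = 0.946). Eln shares 267 exon bases with Gm30003, annotated on the opposite strand, which is not among the gene rows and so has no level here.

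The microfibril-associated glycoproteins also overlapped between labels. Mfap2 had 835, 859.8, 541 and 424 normalised counts in YAP-deleted LYT006, LYT008, LYT013 and LYT016, against 862, 675, 489, 390.1 and 266 in control LYT004, LYT005, LYT014, LYT015 and LYT017, a difference of 0.32 ± 0.30 (SE, limma adjusted p = 0.722) that ran from 0.13 to 0.51 on leaving out 1 library. Mfap4 had 256, 279, 66.4 and 188 in the same YAP-deleted libraries, against 490.0, 239, 255, 213 and 154 in the control libraries, a difference of −0.40 ± 0.33 (limma adjusted p = 0.697). The Mfap4 difference leaned on LYT013, and in the 7 libraries it was −0.07 ± 0.29 (limma adjusted p = 0.981). That of Mfap2 was 0.39 ± 0.37 in the 7 libraries (limma adjusted p = 0.919). Mfap5 had 3.46, 0, 0.598 and 1.67 in the YAP-deleted libraries, against 0, 0, 2.41, 1.88 and 5.37 in the control libraries, and no difference could be read at this depth. Mfap4 shares 89 exon bases with Mapk7 on the opposite strand (395 to 533 normalised counts), and whether counting used strand is not given in the labels.

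The fibulins went different ways by label, and their groups overlapped over the 9 libraries. Fbln1 had 751, 1468, 542 and 589.8 normalised counts in YAP-deleted LYT006, LYT008, LYT013 and LYT016, against 657, 989, 529.6, 501 and 475 in control LYT004, LYT005, LYT014, LYT015 and LYT017, a difference of 0.32 ± 0.28 (SE, limma adjusted p = 0.710). LYT008 was the highest library, and without it the Fbln1 difference was 0.03. In the 7 libraries the Fbln1 difference was 0.43 ± 0.32 (limma adjusted p = 0.877). Fbln2 had 80.7, 95.7, 29.9 and 95.9 in the YAP-deleted libraries, against 217, 180.3, 53.8, 64.1 and 64.5 in the control libraries, a difference of −0.33 ± 0.32 (limma adjusted p = 0.736) that was −0.11 without LYT013 and −0.47 without LYT014. In Fbln2 the 2 control libraries of codes 4 to 8 stood above all others. The other 7 libraries overlapped between labels only through LYT013, the lowest at 29.9. YAP-deleted LYT006, LYT008 and LYT016, at 80.7, 95.7 and 95.9, lay above control LYT014, LYT015 and LYT017, at 53.8, 64.1 and 64.5. Without LYT013 and LYT014 the Fbln2 difference was −0.25 ± 0.31 (limma adjusted p = 0.941). That value pooled opposite orders. YAP-deleted LYT006 and LYT008 lay below control LYT004 and LYT005, whereas YAP-deleted LYT016, a single library, lay above control LYT015 and LYT017. Fbln5 had 8662, 8215, 5892 and 6976 in the YAP-deleted libraries, against 7222, 7317, 9226, 6737 and 8381 in the control libraries, a difference of −0.07 ± 0.15 (limma adjusted p = 0.879). Its highest library was LYT014 and its lowest LYT013, and without them the sign turned to 0.10 ± 0.12 (limma adjusted p = 0.940). Efemp2 had 5669, 7982, 9061 and 4926 in the YAP-deleted libraries, against 6358, 7816, 5101, 4995 and 5709.7 in the control libraries, a difference of 0.18 ± 0.20 (limma adjusted p = 0.765). Its highest value was that of LYT013, and in the 7 libraries the difference was −0.02 ± 0.20 (limma adjusted p = 0.992). Efemp2 shares 173 exon bases with Mus81 on the opposite strand (198 to 309 normalised counts).

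Within a single range the labels did not overlap for 4 of 10 members in codes 4 to 8, against 41.5% of all genes, and for 4 of 10 in codes 13 to 17, against 21.1% of all genes. In codes 4 to 8, Fbln2 was lower in both YAP-deleted libraries than in both control libraries (−0.84 ± 0.16, limma adjusted p = 0.477) and Fbln5 was higher in both (0.21 ± 0.11, limma adjusted p = 0.571). In codes 13 to 17, Fbln1 was higher in the YAP-deleted libraries than in the control libraries (0.16 ± 0.16, limma adjusted p = 0.749). Mfap5 was lower there in normalised counts only, at 1 to 4 recovered counts. YAP-deleted LYT016 and control LYT015 both had 2 recovered counts of Mfap5 and lay apart only through their size factors. Fbln2 and Fbln5 overlapped between labels in codes 13 to 17, and Fbln1 did so in codes 4 to 8. Fbn1 and Emilin1 were the other members in both counts.

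**Figure D3:**
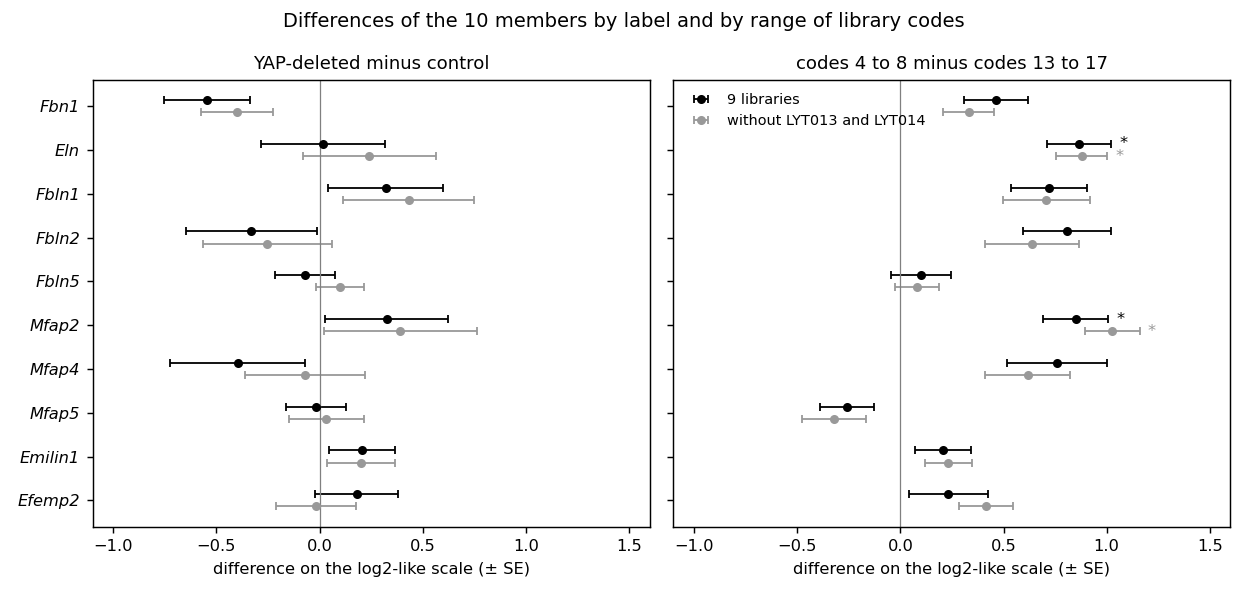
Differences of the 10 genes on the log2-like scale with their SE, YAP-deleted minus control on the left and codes 4 to 8 minus codes 13 to 17 on the right, for 9 libraries (black) and for the 7 without LYT013 and LYT014 (grey). Asterisks mark a limma adjusted p under 0.05, which Eln and Mfap2 reached on the right and no gene reached on the left.

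Eln and Mfap2, which did not pass by label, passed between the ranges of library codes. The fit held label and range together and was added with the data known, and the ranges were not set up as a comparison by the study. Of the 10 members, 9 had a positive difference between codes 4 to 8 and codes 13 to 17, with a median of 0.59, against 47.3% of all genes and a median of −0.01. Limma called 2 of the 10 at an adjusted p under 0.05, Eln and Mfap2, both higher, against 0.477% of all genes called higher (82 of 17199) and 0.628% called in either direction. At an unadjusted p under 0.05 there were 6 members, against 17.4% of all genes. Eln, Mfap2 and Fbln1 had ranges that did not overlap, against 2.99% of all genes with codes 4 to 8 all higher and 5.91% with no overlap in either direction. In the 7 libraries Eln and Mfap2 were again the members called, against 4.26% of all genes called higher and 7.16% in either direction.

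Eln averaged 6198 ± 479 normalised counts in codes 4 to 8 and 3439 ± 719 in codes 13 to 17 (SD, n = 4 and 5). The difference was 0.87 ± 0.15 on the log2-like scale (SE, limma adjusted p = 0.0427), and 0.88 ± 0.12 in the 7 libraries (limma adjusted p = 0.0107). Every library of codes 4 to 8, at 5624 to 6686, lay above every library of codes 13 to 17, at 2678 to 4414, and both ranges held both labels. Mfap2 averaged 808 ± 89.6 in codes 4 to 8 and 422 ± 105 in codes 13 to 17 (0.85 ± 0.16, limma adjusted p = 0.0479), and its difference in the 7 libraries was 1.03 ± 0.13 (limma adjusted p = 0.00845). Fbln1 averaged 966 ± 363 and 528 ± 43.3 in the same order, with no overlap and no call (0.72 ± 0.18, limma adjusted p = 0.0789).

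Fbln2 (0.81 ± 0.21, limma adjusted p = 0.0839), Mfap4 (0.76 ± 0.24, adjusted p = 0.138) and Fbn1 (0.47 ± 0.15, adjusted p = 0.154) had positive differences that did not pass. Emilin1 (0.20 ± 0.14), Efemp2 (0.23 ± 0.19) and Fbln5 (0.10 ± 0.15) had small ones, with limma adjusted p-values from 0.484 to 0.781. In the 7 libraries the Efemp2 difference was 0.42 ± 0.13 (limma adjusted p = 0.0929), and it ran from 0.12 to 0.43 on leaving out 1 library, highest without LYT013. Mfap5 differed by −0.26 ± 0.13 at 0 to 4 counts. Whether genes differed from each other in this difference was not tested.

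The number of calls by range of codes depended on which library was left out, and no 1 library alone carried them. The number of genes called was 108 with 9 libraries, and was 2 without LYT008, 2 without LYT017, 3 without LYT004, 4 without LYT015 and 7 without LYT005. It was 650.0 without LYT006, 715 without LYT013 and 208 without LYT016. Eln kept its direction in all 19 alternatives and passed in 12, and Mfap2 kept its direction in all 19 and passed in 9. Eln was not called without LYT004, LYT005, LYT008, LYT015 or LYT017, with limma adjusted p-values up to 0.212 and differences from 0.78 to 0.95 over all libraries left out. Mfap2 was not called without any of these 5 or without LYT016, with limma adjusted p-values up to 0.232 and differences from 0.74 to 0.93.

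Transcripts of other cells and states moved with the range of codes as well, where 47.3% of all genes had a positive difference, 0.477% were called higher and 0.151% were called lower. Macrophage markers had a negative difference between codes 4 to 8 and codes 13 to 17 for 8 of 8 genes, and limma called 4 lower (Cd5l, Clec4f, Marco and Vsig4, which mark Kupffer cells). Their summed level was 204 to 372 normalised counts in codes 4 to 8 and 608 to 1043 in codes 13 to 17. Genes of activated stellate cells had a positive difference for 7 of 7 genes, of which limma called Col1a1, Col1a2 and Lox higher, with sums of 346287 to 831387 in codes 4 to 8 and 251920.3 to 380744 in codes 13 to 17. Among these 7, Fn1 differed by only 0.01 ± 0.21. Portal fibroblast markers had a positive difference for 6 of 9 genes (median 0.21) and limma called 0. Their sums were 6109 to 9303 in codes 4 to 8 and 1593 to 4843 in codes 13 to 17. Cd34 (1.64), Col15a1 (1.64) and Dpt (1.02) had the largest differences, and Pi16 (−0.43), Scara5 (−0.22) and Entpd2 (−0.03) were negative. Clec3b, Pi16 and Scara5 were listed at 0 in some libraries. Cycling genes had a positive difference for 8 of 8 and limma called 0, with sums of 830.3 to 20420.0 in codes 4 to 8 and 606 to 4401 in codes 13 to 17. Mesothelial markers were near 0, with sums of 1.07 to 5.10 in codes 4 to 8 and 6.58 to 111 in codes 13 to 17, and all 7 were listed at 0 in some libraries. Endothelial markers had a positive difference for 1 of 6 and limma called 0. The stellate cell markers themselves had a positive difference for 3 of 12 (median −0.10) and limma called 0. Their sums were 449799.5 to 695792 in codes 4 to 8 and 577010 to 763867 in codes 13 to 17. For vascular smooth muscle markers it was 4 of 7 (median 0.07) with 0 called, and sums of 29242 to 32532 in codes 4 to 8 and 23947 to 33753 in codes 13 to 17. The part of these transcripts in the differences of Eln and Mfap2 was not tested, and what else differed between the ranges cannot be told apart from them.

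Among the other genes of the pathway no gene passed by label. The lists were 5 lysyl oxidases that cross-link elastin, 11 fibrillin partners and latent TGF-beta binding proteins, 8 other fibulins, emilins and multimerins, 9 receptors of elastin and microfibrils, and 9 proteases known to degrade elastin. Limma called 0 of 5, 0 of 11, 0 of 7 tested, 0 of 9 and 0 of 8 tested between YAP-deleted and control libraries, with 9 libraries and with 7. The median differences over 9 libraries were −0.24, 0.04, −0.04, 0.04 and 0.00. Lox, the best known cross-linking enzyme, differed by −1.30 ± 0.57 (SE, limma adjusted p = 0.649). Hmcn1, a hemicentin related to the fibulins, differed by −0.69 ± 0.30, and Fbn2, the fibrillin of developing tissue, by −0.64 ± 0.42, with limma adjusted p-values of 0.649 and 0.653. In the 7 libraries the differences were −1.17 ± 0.71 for Lox, −0.30 ± 0.17 for Hmcn1 and −0.27 ± 0.27 for Fbn2. Itgav, the integrin alpha chain that binds fibrillin and latent TGF-beta, differed by −0.41 ± 0.20, and Ltbp4, a latent TGF-beta binding protein needed for elastic fibre assembly, by 0.27 ± 0.18, also without passing (limma adjusted p = 0.649 and 0.653). Without LYT013 and LYT014 they differed by −0.17 ± 0.09 and 0.26 ± 0.16. LYT013 was the lowest of the 9 libraries for Lox, Hmcn1, Fbn2 and Itgav.

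By range of codes, cross-linking enzymes were called along with elastin. Limma called Lox and Loxl1 higher in codes 4 to 8 among the 5 cross-linking genes, all 5 of which had a positive difference (median 0.58), against 0.477% of all genes called higher and 47.3% with a positive difference. Lox and Loxl1 were again called in the 7 libraries, and 4 of the 5 differences were positive. Loxl1, which cross-links tropoelastin and binds fibulin-5, had 4606, 5473, 5833 and 4861 normalised counts in LYT006, LYT008, LYT004 and LYT005, against 2074, 2557, 3478, 2389 and 2093 in LYT013, LYT016, LYT014, LYT015 and LYT017. The ranges did not overlap, and the difference was 1.06 ± 0.15 (SE, limma adjusted p = 0.0208). Lox had 563, 1447, 3758 and 3722 in the same libraries of codes 4 to 8, against 363, 377, 1234, 738 and 625 in those of codes 13 to 17, a difference of 1.67 ± 0.29 (limma adjusted p = 0.0394). Its ranges overlapped, and within both of them the YAP-deleted libraries were the lower ones. Ltbp2, a fibrillin-binding protein that does not bind latent TGF-beta, had 3267, 4036, 8145 and 6118 in codes 4 to 8, against 483, 1359, 2814, 2036 and 1149.7 in codes 13 to 17. It was the 1 of 11 fibrillin partners called (1.96 ± 0.30, limma adjusted p = 0.0243). Limma called 0 of 7 tested fibulin and emilin relatives, 0 of 9 receptors and 0 of 8 tested proteases, and Mmp14, a membrane-bound metalloproteinase, came closest at 0.46 ± 0.10 (limma adjusted p = 0.0690). In the 7 libraries limma called Ltbp2 again and 3 further genes of the lists, Mmp14 (0.51 ± 0.09, limma adjusted p = 0.0185) and the fibronectin receptor chain Itga5 (0.54 ± 0.10, adjusted p = 0.0270) higher and the fibrillin partner Adamtsl4 lower (−0.82 ± 0.13, adjusted p = 0.0162). Of all genes, 4.26% were called higher and 2.9% lower in that fit. The 9-library calls of Loxl1, Lox and Ltbp2 each ended without LYT004, LYT005, LYT008, LYT015 or LYT017. Limma adjusted p-values were then up to 0.145 for Loxl1, 0.207 for Lox and 0.152 for Ltbp2.

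**Figure D4:**
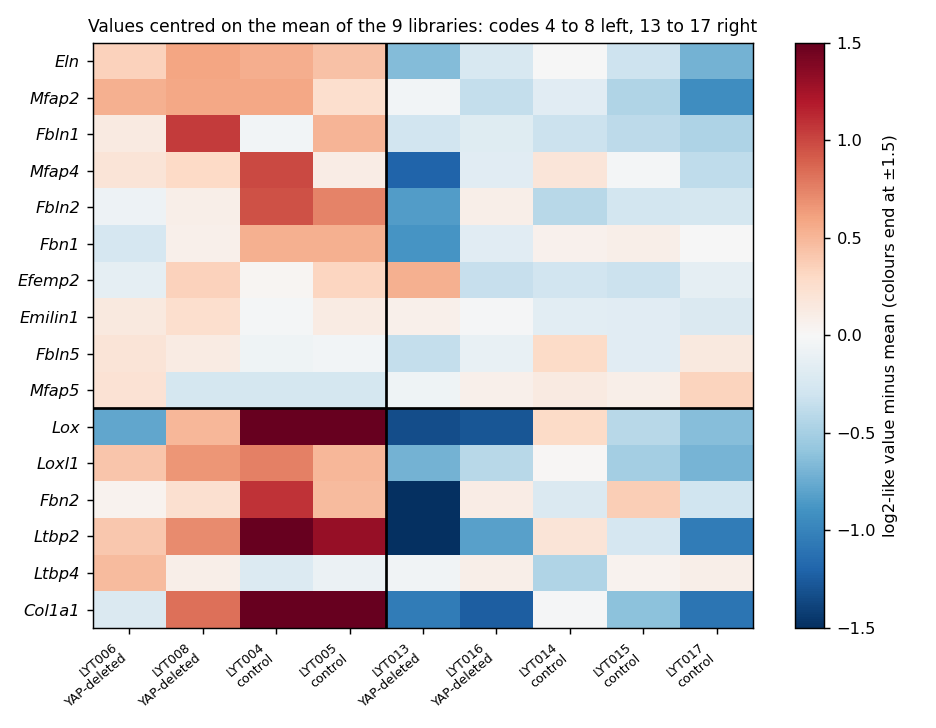
Value of each of the 10 genes, and under the line of Lox, Loxl1, Fbn2, Ltbp2, Ltbp4 and the collagen gene Col1a1, minus the mean of that gene over the 9 libraries (log2-like scale), with libraries grouped by range of codes with YAP-deleted libraries left of control libraries within each range. Eln and Mfap2 are above their means in all 4 libraries of codes 4 to 8, and Fbn1 is lowest in LYT013.

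The members did not share a single pattern over the libraries. Likeness was measured as the root mean square distance between genes over the 9 libraries, each gene centred on its own mean, among 8599 genes at or above the median level. The gene nearest to Eln was Loxl1 at 0.124, against a median distance of 0.523 over all genes compared. Oxct1, a ketone body enzyme, followed at 0.151, Arsb, a lysosomal sulfatase, at 0.152, and Lnpk, a protein of the endoplasmic reticulum, at 0.162. Mfap2 was the member nearest to Eln, at 0.250 and rank 66.

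Fbn1 had other neighbours. Nearest to it were Xpo1, a nuclear export receptor, at 0.0867, Lin54, a subunit of a cell cycle repressor complex, at 0.0951, Ppfibp1, a liprin, at 0.0971, Usp1, a deubiquitinase, at 0.110, and Myo5a, a myosin motor, at 0.111, against a median of 0.448. Eln stood at rank 2814 from Fbn1. Within the family, Fbn1 and Fbln2 were each nearest to the other (0.288), as were Eln and Mfap2 (0.250), Emilin1 and Efemp2 (0.234), and Fbln5 and Mfap5 (0.230), while Fbln1 lay nearest to Eln (0.318) and Mfap4 to Fbn1 (0.316). The pairs of Emilin1 with Efemp2 and of Fbln5 with Mfap5 join genes with a small spread over the libraries, of 0.15 for Emilin1, 0.31 for Efemp2, 0.19 for Fbln5 and 0.21 for Mfap5 on the log2-like scale, against 0.40 for Fbn1 and 0.48 for Eln.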

How the data were processed

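The authors deposited 1 table of variance-stabilised log2-like values, 1 per gene name and library, with 35024 rows, of which 13872 held the lowest value in all 9 libraries. The tools listed in the submitters' processing notes are kallisto 0.44.0, sleuth and bcl2fastq 2.20, and the builds listed there, without a role, are GRCh38, GRCm38 and mm10. No source used here gives the step that made the values. Per the labels' protocols, both poly-A selection and ribosomal depletion were in use, and which one each library received is not given. The column of LYT013 was headed LYT013.1. Inverting the transformation gave whole counts within 0.1 for 100.0% of values in every library. These recovered counts give the depth, and normalised counts are counts divided by size factors.

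Tests were run on the deposited log2 values with limma 3.58.1 in R 4.3.3 (mean-variance trend, two-sided, Benjamini-Hochberg at 0.05 over all genes tested). A gene entered the test when at least 4 libraries exceeded the lowest value, and 4 rows with repeated names were dropped, leaving 17199. The scale understates changes of genes with few counts. A second term, the range of library codes, was added after the data were known. The members, the pathway lists, the markers and the rule for named genes (the members, up to 4 genes per list by smallest p, the 5 genes nearest to Eln and to Fbn1) were chosen with earlier results of these data known. A gene that the rule names is not reported here. The procedure was tested on simulated data. Alternatives covered filters, scaling, transformation, moderation, library weights and the omission of libraries. Gene positions and lengths came from GENCODE M21 on GRCm38, and 34802 gene names matched the reference names. Figures and summaries were made with Python 3.11.15.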

Additional observations from a re-analysis of the deposited data

How the results depend on the processing

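No gene was called by label in 19 of 21 alternatives, and the exceptions were 3 genes with library codes 4 to 8 only and 12 without LYT013 and LYT014. Yap1 was among the genes called in both of these. The count was also 0 on leaving out each library in turn. No member passed by label in any alternative. By range of codes 108 genes were called, against 69 with genes at or above the median level only, 1798 with library weights, 32 with the range alone in the fit, 1231 without LYT013 and LYT014, and 2 to 715 on leaving out 1 library; the cause was not tested. By label, the sign of Eln (0.02) turned with the range of codes as a term (−0.068), in codes 4 to 8 only (−0.024) and in codes 13 to 17 only (−0.11), and ran from −0.17 to 0.24 on leaving out 1 library. Fbln5 (−0.07) turned with library weights (0.042), in codes 4 to 8 only (0.21) and without LYT013 and LYT014 (0.10), and ran from −0.15 to 0.035 on leaving out 1 library. Mfap5 (−0.02) turned with libraries centred on the median (0.0034), with the range as a term (0.0089), in codes 4 to 8 only (0.24) and without LYT013 and LYT014 (0.033), and ran from −0.092 to 0.068 on leaving out 1 library. Efemp2 (0.18) turned in codes 4 to 8 only (−0.067) and without LYT013 and LYT014 (−0.017). By range of codes no member changed sign in any alternative. With library weights Fbn1, Fbln1 and Fbln2 were also called by range (limma adjusted p = 0.0430, 0.0208 and 0.0360), Fbln1 was called without LYT006 (0.0222) and Fbln2 without LYT016 (0.0177). Fits within codes 4 to 8 rest on 2 YAP-deleted and 2 control libraries. Depth limits Mfap5, at 0 to 4 counts per library. No paired analysis was run because the labels do not pair libraries of the 2 groups, and the replicate numbers are the library codes themselves.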
